A study of Mus musculus with 2 samples.

Results

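The Mir15, Mir16, Mir195 and Mir497 family was followed in the facial prominences of mouse embryos, as 6 of the 1973 genes in the deposited tables. The members were the entries whose Ensembl identifiers carry the GENCODE symbols Mir15a, Mir15b, Mir16-1, Mir16-2, Mir195a and Mir497b, and all 6 were found. Small RNA of microRNA size was sequenced from tissue of B6NCrl embryos at 12.5 days, in 1 group of 2 libraries. Replicate 1 came from a pool of 120 embryos and replicate 2 from a pool of 88, both healthy and of mixed sex, with no genotype or treatment given in the labels. There was no other group, so levels are described within the tissue, and any test compares the libraries, not conditions.

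MicroRNAs are short RNAs that guide a silencing complex to messenger RNAs, chiefly by pairing through the seed, bases 2 to 8 from the 5′ end. A transcript folds into a hairpin whose 5p and 3p arms can each give a mature strand, and the arm kept in the complex is the guide. The family is known for restraining the cell cycle, with cyclins and cyclin-dependent kinases among its targets. The locus of Mir15a and Mir16-1 is known from chronic lymphocytic leukaemia, where it is often deleted. Mir195a and Mir497 are known from the withdrawal of muscle cells from division.

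RefSeq (GRCm38.p6) held mature sequences for 6 of the 6 members and hairpins for 5, all but Mir15a. The 5p strands are shown because they carry the seed that unites the family, here in capitals:
Mir15a (miR-15a-5p): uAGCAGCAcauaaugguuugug
Mir15b (miR-15b-5p): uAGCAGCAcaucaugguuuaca
Mir16-1 and Mir16-2 (miR-16-5p): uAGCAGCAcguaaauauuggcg
Mir195a (miR-195a-5p): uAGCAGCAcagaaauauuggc
Mir497 (miR-497a-5p): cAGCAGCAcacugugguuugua
The 5 sequences had the same base at positions 2 to 9, 17 and 18 of the first 21, counted from the 5′ end. After the seed they divided. The miR-16 and miR-195a strands were identical at 11 of the 13 positions after base 8, and miR-15a and miR-15b at 10 of 14. The miR-497a strand shared 10 of 14 with miR-15a and 9 of 14 with miR-15b. It shared 4 of 14 with miR-16 and 5 of 13 with miR-195a. The 3p strands had no seed in common: each of the 5 seeds of the 3p strands of Mir15a, Mir15b, Mir16-1, Mir16-2 and Mir195a occurred in that 1 gene among the 1738 mature entries of the RefSeq table.

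Both Mir16 genes encode the same 5p strand, which bears on their counts. The hairpins are shown with their longest common stretch, 23 bases, in capitals:
Mir16-1: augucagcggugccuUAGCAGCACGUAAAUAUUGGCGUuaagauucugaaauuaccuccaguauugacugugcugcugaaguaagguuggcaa
Mir16-2: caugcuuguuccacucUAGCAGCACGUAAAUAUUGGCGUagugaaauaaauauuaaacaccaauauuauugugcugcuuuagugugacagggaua
The common stretch covered the whole 22-base mature strand and 1 base more. A read that lies inside it has a place in both genes, and the tables set reads with several places apart from the gene counts, as 2970119 reads (26.0% of the library) in replicate 1 and 3575159 (27.9%) in replicate 2. How many of these carried miR-16-5p cannot be read from the tables. The counts of Mir16-1 and Mir16-2 are those of reads that tell the genes apart, such as their 3p strands, miR-16-1-3p (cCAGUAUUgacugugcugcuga) and miR-16-2-3p (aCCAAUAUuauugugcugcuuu), or reads that run past the common stretch. They leave out an unknown number of miR-16-5p reads. Mir15a, Mir15b, Mir195a and Mir497b shared no stretch of 20 bases with a miRNA gene at another place. The longest run that Mir195a shared with Mir195b was 16 bases.

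The family lies in 3 clusters on GRCm38, the assembly that mm10 denotes. Mir15a (ENSMUSG00000093007.1) at chromosome 14, positions 61632027 to 61632110, lay in an intron of the noncoding gene Dleu2. Mir16-1 (ENSMUSG00000092995.1) at positions 61631880 to 61631972 overlapped an annotated Dleu2 exon, 54 bases from Mir15a on the same minus strand. Mir15b at chromosome 3, positions 69009772 to 69009835, and Mir16-2 (ENSMUSG00000065606.1) at positions 69009902 to 69009996 both lay in an intron of Smc4, which encodes a condensin subunit, 66 bases apart on the plus strand. The tables list Mir15b as ENSMUSG00000065580.1, an earlier version than the one placed here (ENSMUSG00000065580.2), so the counted interval may differ. Mir195a (ENSMUSG00000065411.2) at chromosome 11, positions 70235042 to 70235135, and Mir497 at positions 70234717 to 70234800 had 241 bases between them on the plus strand. Mir195a did not lie inside an annotated host gene on that strand, and no host is given here for Mir497. Mir497b (ENSMUSG00000070109.2) at positions 70234692 to 70234816 lay on the minus strand and covered all 84 bases of Mir497.

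**Figure D1:**
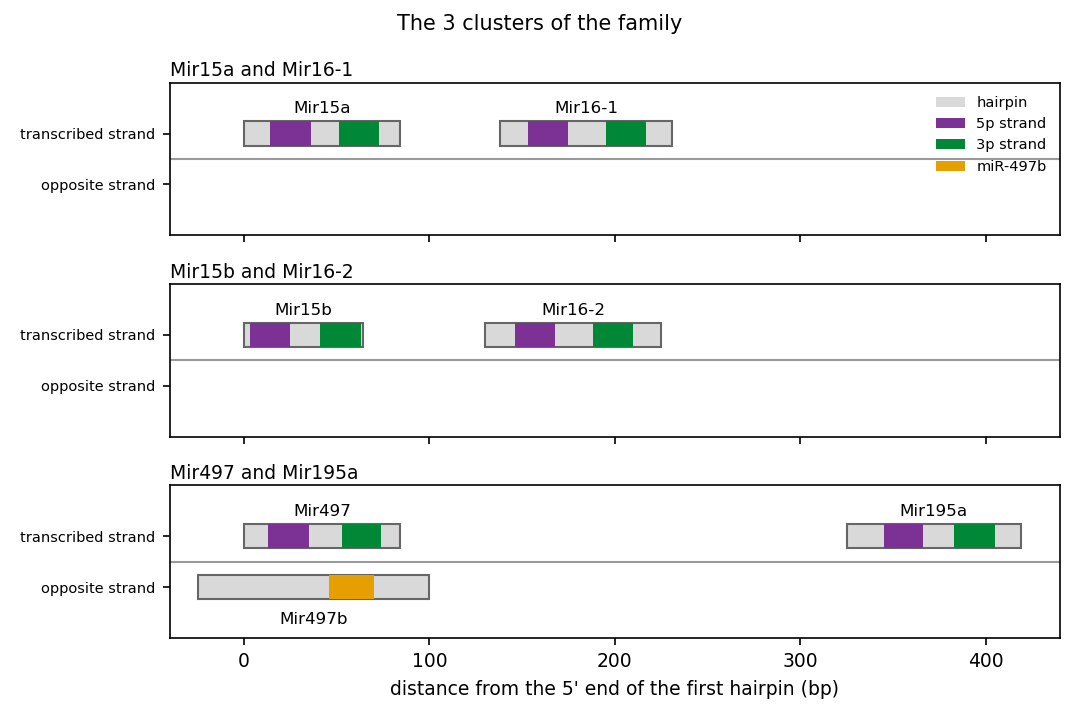
Map of the 3 clusters, with distance in bp from the 5′ end of the first hairpin in the direction of transcription; grey boxes are hairpins and coloured boxes mature strands. Each cluster pairs 2 hairpins on 1 strand, and Mir497b lies on the strand opposite Mir497.

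Replicate 1 held 11414919 reads and replicate 2 held 12792420, and miRNA genes took 4719337 and 5929220 of these on their own strand. Levels are given in CPM, the own-strand count per 1000000 such reads, with the SD of the 2 libraries (n = 2). Mature miRNAs have nearly the same length, so CPM were not scaled by length. Whether equal CPM stand for equal amounts of unlike miRNAs was not tested. Detection required 10 or more counts per library, which 395 genes and 5 of the 6 members met. Markers of facial mesenchyme and cartilage and of its covering epithelium were looked up, and all 4 genes of each list were detected. The liver gene Mir122 also met that bar, with 65 and 80 counts, so detection alone does not test the tissue label. The summed levels of the lists are given below. Of the 5 neuronal genes, Mir137 was detected at 794 and 784 CPM, Mir124a-2 and Mir124a-3 had at most 4 counts and Mir124a-1 and Mir9-2 had 0. All but Mir137 share sequence with other genes, so this list does not show whether neurons were absent.

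Together the 6 members held 36573 own-strand reads in replicate 1, or 0.775% of the gene counts (exact Clopper-Pearson 95% interval 0.767 to 0.783), and 50342 reads in replicate 2, or 0.849% (interval 0.842 to 0.856). Such intervals cover counting error only, and the shares leave out reads of miR-16-5p with several places. The mean share was 0.812% ± 0.0524 (SD, n = 2). With the reads opposite Mir497b added, it was 0.890% ± 0.0628. Of that total Mir15a made up 42.9% ± 2.98, Mir16-1 20.5% ± 1.62 and Mir15b 16.5% ± 0.169, and the Mir497b locus 8.79% ± 0.563. Mir195a made up 6.41% ± 0.771 and Mir16-2 4.87% ± 0.197.

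**Figure D2:**
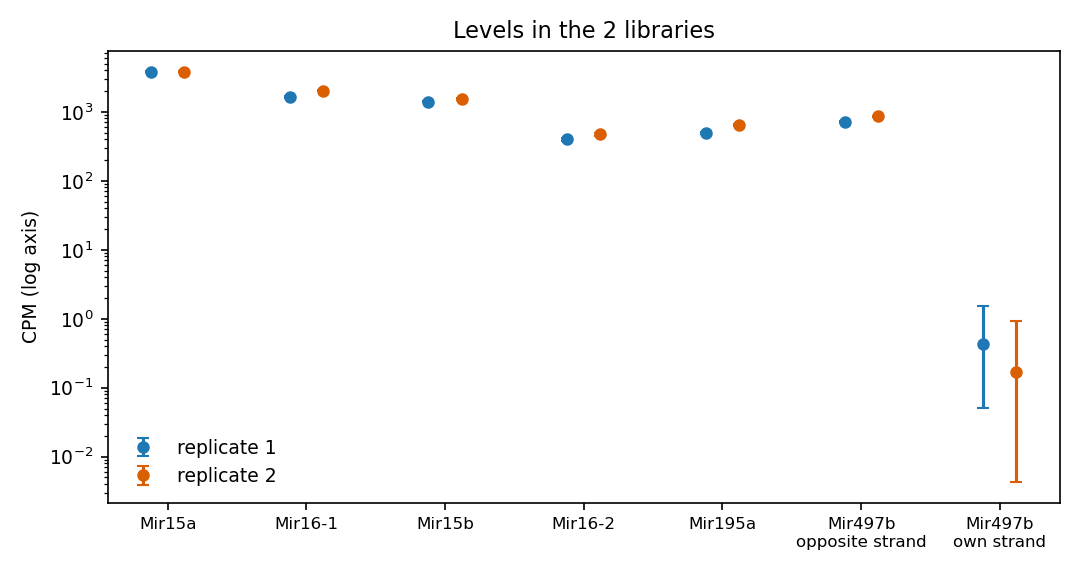
Level of each member in CPM (log axis) in replicate 1 (blue) and replicate 2 (orange), with exact 95% counting intervals as bars, which are narrower than the points where they are not seen. Own-strand levels run from about 3810 CPM for Mir15a to under 1 CPM for Mir497b, whose opposite strand stands between 709.6 and 859 CPM.

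Mir15a was the highest member, with 17964 counts (3806 CPM) in replicate 1 and 22610 (3813 CPM) in replicate 2. Its mean of 3809.9 ± 4.84 CPM ranked 55 among the 395 detected genes. The libraries were nearly equal, and the counting intervals of 3751 to 3862 and 3764 to 3863 CPM overlapped. Its cluster partner Mir16-1 had 7729 counts (1638 CPM) and 12000 (2024 CPM), a mean of 1831 ± 273 CPM at rank 75. Replicate 2 was the higher, and the intervals of 1601 to 1675 and 1988 to 2060.4 CPM did not overlap. The genes of the Dleu2 cluster together stood at 5444 and 5837 CPM, the highest sum of the 3 clusters in each library among counted reads. The sums of the Dleu2 and Smc4 clusters leave out miR-16-5p reads with several places. The order of the clusters therefore holds for the counted reads alone.

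Mir15b had 6647 counts (1408 CPM) in replicate 1 and 9097 (1534 CPM) in replicate 2, with a mean of 1471 ± 89.0 CPM at rank 87. It stood below Mir15a in both libraries, although their 5p strands were identical at 18 of 22 positions. Mir16-2 was the lowest detected member, with 1890 counts (400.5 CPM) and 2779 (469 CPM), a mean of 435 ± 48.2 CPM at rank 136. Both genes of the Smc4 cluster were higher in replicate 2, and their sum was 1809 and 2003 CPM.

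Mir195a had 2341 counts (496 CPM) in replicate 1 and 3855 (650.2 CPM) in replicate 2, with a mean of 573 ± 109 CPM at rank 121. The gap between its libraries was the widest of the detected members relative to its level. Mir195b, which carries the same seed on chromosome 2, had 0 counts in replicate 1, where its level could still be up to 0.636 CPM (3 counts), and 1 count in replicate 2.

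The entry Mir497b gave almost no reads of its own. Its own strand had 2 counts (0.424 CPM) in replicate 1 and 1 (0.169 CPM) in the other library, below the level that a count of 0 allows in each library (0.636 and 0.506 CPM). On the opposite strand there were 3349 and 5092 reads, equal to 710 and 859 CPM of the own-strand totals, with a mean of 784 ± 105 CPM. Opposite-strand reads thus made up 99.94% of the reads at the locus in replicate 1 (exact interval 99.78 to 99.99) and 99.98% in replicate 2 (interval 99.89 to 99.9995). Mir497 had no row of its own among those analysed here, and its hairpin lies inside Mir497b on that strand. The mature strands at the locus show how close the antisense pair lies, with seeds in capitals:
Mir497 (miR-497a-3p): cAAACCACacugugguguuag
Mir497b (miR-497b): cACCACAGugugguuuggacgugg
The miR-497b strand overlapped miR-497a-3p over 17 bases on the other strand and did not overlap miR-497a-5p. Its seed was not that of the family. Among mature entries in the RefSeq table it was shared with 1 other gene, the cartilage miRNA gene Mir140. The gene counts do not show which arm of Mir497 the reads came from. The other 5 members had 0 reads on the opposite strand in both libraries.

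The order of levels was the same in both libraries: Mir15a, Mir16-1, Mir15b, the opposite strand of Mir497b, Mir195a and Mir16-2. No neighbours in that order had overlapping ranges over the 2 libraries. Mir16-1 exceeded Mir15b by 1.16-fold in replicate 1 and 1.32-fold in replicate 2, and Mir195a exceeded Mir16-2 by 1.24-fold and 1.39-fold. The opposite strand of Mir497b exceeded Mir195a by 1.43-fold and 1.32-fold. Mir15a exceeded Mir16-2 by 9.50-fold and 8.14-fold. Each order that involves Mir16-1 or Mir16-2 holds for reads that tell these genes apart, not for the whole yield of the genes.

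Within each cluster the counts of the genes were unequal. Mir15a exceeded Mir16-1 by 2.32-fold in replicate 1 (exact interval 2.26 to 2.39) and by 1.88-fold in replicate 2 (1.84 to 1.93). Mir15b exceeded Mir16-2 by 3.52-fold (3.34 to 3.70) and 3.27-fold (3.14 to 3.42). In both clusters the Mir15 gene was thus the higher, beside the limit on reads of miR-16-5p given above. In the third cluster Mir195a stood below the reads on the strand of Mir497, at 0.699 of their count (0.663 to 0.737) in replicate 1 and 0.757 (0.726 to 0.790) in replicate 2. The intervals of the libraries did not overlap for Mir15a and Mir16-1 and overlapped for the other pairs.

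**Figure D3:**
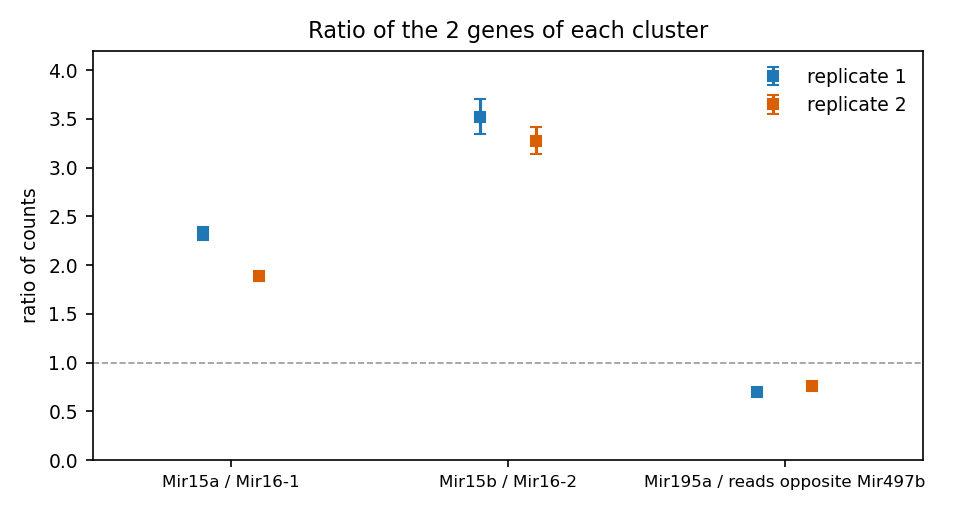
Ratio of counts of the genes in each cluster in replicate 1 (blue) and replicate 2 (orange), with exact 95% counting intervals as bars and a dashed line at equal counts. The Mir15 genes stand above their Mir16 partners in both libraries, and Mir195a stands below the reads opposite Mir497b.

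The libraries were then compared to show how far the levels repeat between pools of embryos. With a two-sided exact binomial test against the share given by the library sizes, adjusted over the 395 detected genes by the Benjamini-Hochberg method, a gene was called at an adjusted p under 0.05 and a log2 ratio of at least 1 in size. Of the 5 detected members 0 were called, where 4.05% of all detected genes were. At an unadjusted p under 0.05 and the same size the count was also 0, against the same 4.05% of all detected genes. With no size limit, 4 of the 5 members differed beyond counting error, against 51.9% of all detected genes. All 4 were higher in replicate 2, as were 27.1% of all detected genes under the same rule. The shares of 51.9% and 27.1% are not at like depth, since each of the 5 members had 1890 counts or more in each library. Many detected genes had far fewer counts, with wider counting intervals. The 4 of 5 therefore does not show that members differed more often than genes of like depth.

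Mir195a showed the largest log2 ratio of replicate 2 over replicate 1 among the members, 0.39 (exact interval 0.31 to 0.46, exact binomial adjusted p = 4.78e-24), or 1.31-fold. Mir16-1 followed with 0.30 (interval 0.26 to 0.34, exact binomial adjusted p = 6.74e-46), and Mir16-2 had 0.22 (0.14 to 0.31). Mir15b had 0.12 (0.07 to 0.16). The median absolute log2 ratio was 0.22 over the 5 members and 0.23 over all detected genes. These medians are not at like depth either, so they do not show that the sizes were like those of other genes. Mir15a had a ratio of 0.00 (interval -0.03 to 0.03), with an exact binomial adjusted p of 0.925, and lay at the median of all detected genes. The signed median was 0.22 over the members and 0.00 over all detected genes. In the table of both strands, where 404 genes were tested and 26% were higher in replicate 2 beyond counting error, the Mir497b locus had a log2 ratio of 0.26 (interval 0.20 to 0.32, exact binomial adjusted p = 2.93e-15).

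That test allows for counting error and not for the spread between pools. With a coefficient of variation of 0.2 allowed for that spread, edgeR's exact test called 0 of the 5 members and 0.506% of all detected genes (2 of 395). The lowest unadjusted p of a member was 0.351, for Mir195a, where 5.06% of all detected genes had one under 0.05, and the edgeR adjusted p was 1 for each member. With so few genes called, 0 of 5 says little about the members.

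**Figure D4:**
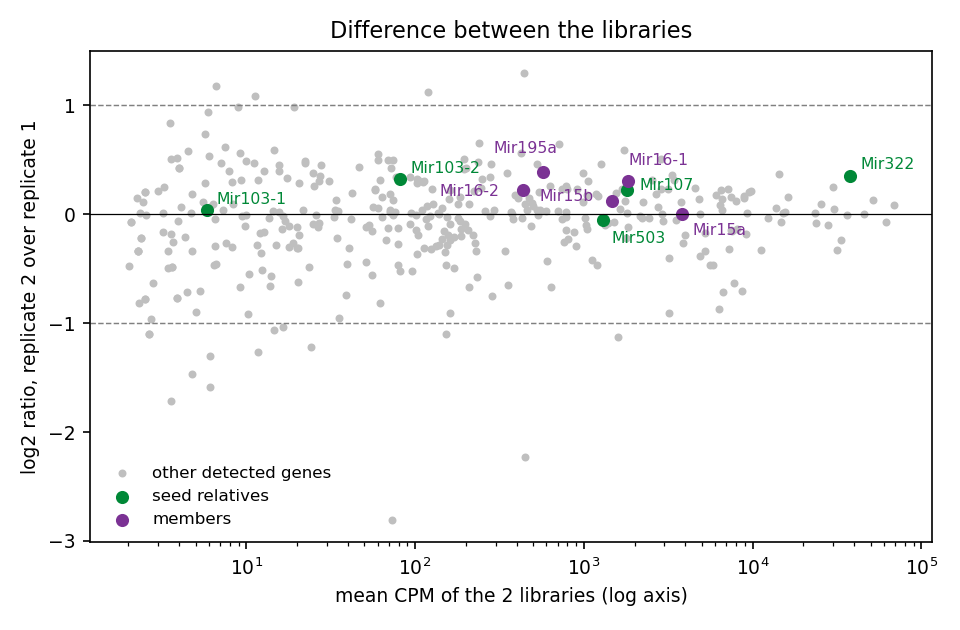
Log2 ratio of replicate 2 over replicate 1 against the mean CPM (log axis) of the 395 detected genes in grey, with the 5 detected members in purple and the seed relatives in green; dashed lines mark a log2 ratio of 1 in either direction. The members lie between -0.003 and 0.39, inside the cloud of other genes.

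Of the 8 marker lists, 4 had higher summed levels in replicate 2 and 4 had lower ones, with no test. The erythroid genes Mir451a, Mir144 and Mir486 summed to 223 CPM in replicate 1 and 331 in replicate 2, with 2 of 3 higher in replicate 2. The skeletal muscle genes Mir206 and Mir133b summed to 1081 and 1498 CPM, with 2 of 2 higher, and the 4 epithelial genes to 27294 and 31290.1 CPM, with 4 of 4 higher. The mesenchyme and cartilage genes summed to 64423 and 63857 CPM, and the 3 leukocyte genes measured to 435 and 444 CPM. Endothelial Mir126a had 29030.3 and 27230 CPM, the neuronal genes summed to 795 and 785 CPM, and the liver gene Mir122 had 13.8 and 13.5 CPM. Their part in the differences of the family was not tested. In such bulk tissue, fewer cells of a type and less RNA per cell cannot be told apart.

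Other genes with the family's seed or one close to it were read from a list of 7 relatives, of which 6 had an entry and 5 were detected. Mir322, an X-linked gene of the same seed that is known from muscle differentiation, had higher counts than the family among reads placed in 1 gene. It had 33299 CPM in replicate 1 and 42672 in replicate 2, which was 3.94 and 4.56 times the summed counts of the family with the reads opposite Mir497b. These sums leave out the reads of miR-16-5p that have several places, so the ratios and the shares of the seed below hold for the counted reads alone. Its 5p strand is shown beside that of its cluster partner Mir503, whose seed ends in another base, with seeds in capitals:
Mir322 (miR-322-5p): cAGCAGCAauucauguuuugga
Mir503 (miR-503-5p): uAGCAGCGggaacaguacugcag
Mir503 had 1320 CPM in replicate 1 and 1274 in replicate 2, near the level of Mir15b. In all, 11 genes in the RefSeq table carried the seed of the family, 5 of them members. Their reads, with those opposite Mir497b taken as Mir497, made up 4.18% of gene counts in replicate 1 and 5.20% in replicate 2. Of these counted reads Mir322 held 79.7% and 82.0% and the family 20.3% and 18.0%. The remaining carriers Mir6342, Mir6353 and Mir6419 had 0 counts in both libraries.

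The miR-103 and miR-107 strands carry the same letters 1 base nearer the 5′ end, so that their seed is shifted:
Mir107 (miR-107-3p): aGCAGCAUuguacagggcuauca
Mir103-1 and Mir103-2 (miR-103-3p): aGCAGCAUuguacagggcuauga
Mir107, in an intron of the pantothenate kinase gene Pank1, had 1671 CPM in replicate 1 and 1952 in replicate 2, close to Mir16-1. Mir103-2 had 72.7 and 91.1 CPM and Mir103-1 had 5.72 and 5.90 CPM. Like the Mir16 genes these have the same mature strand, so their counts leave out reads with several places. Mir107 shared a run of 24 bases with each of the Mir103 hairpins. Among the 5 detected relatives, 3 were higher in replicate 2 beyond counting error (Mir322, Mir107 and Mir103-2) and 1 was lower (Mir503), against 27.1% and 24.8% of all detected genes. These shares are again not at like depth, since Mir322, Mir107 and Mir503 had 6228 counts or more in each library. Of the 5 relatives, 0 were called under the rule with the size limit, where 4.05% of all detected genes were. With so low a share, 0 of 5 says little about the relatives. Their median log2 ratio was 0.22, where the median of all detected genes was 0.00.

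The detected genes nearest in level to the members, next above and next below in mean CPM, were of varied kinds. Mir15a stood between Mir1983 (3874 ± 487 CPM) and the sensory gene Mir96 (3763 ± 208 CPM). Mir16-1 stood between Mir484 (1853 ± 194 CPM) and Mir28a (1827 ± 98.4 CPM), and Mir15b between Mir467d (1515 ± 47.8 CPM) and Mir1193 (1385 ± 48.9 CPM). Mir195a stood between Mir665 (599 ± 9.65 CPM) and Mir494 (547 ± 11.2 CPM). Mir16-2 stood between Mir211 (444 ± 265 CPM) and Mirlet7b (432 ± 7.32 CPM). Mir467d and Mir28a share sequence with other genes, so their counts are uncertain. In all 10 cases the ranges of member and neighbour overlapped over the 2 libraries. With 1 group of 2 libraries, no likeness of pattern across conditions could be given.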

How the data were processed

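The authors deposited raw counts of reads per miRNA gene for the libraries separately. Reads had been aligned to mm10 and assigned to GENCODE M4 genes, per the library descriptions. Trimming, aligner and counter are not given in the sources used here. The tables gave counts on both strands, on the gene's own strand and on the opposite strand, and the own strand held 96.8% and 96.7% of gene reads. Entries that are no gene were kept out of library sizes: these were unmapped reads (25.7% and 19.4%), reads with several places (26.0% and 27.9%) and reads outside genes (5.57% and 4.72%).

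GENCODE M21 (GRCm38) gave symbols for 1894 of 1973 identifiers, positions and hosts. Mature and hairpin sequences came from RefSeq (GRCm38.p6). Copies were searched among miRNA genes only, as stretches of 20 bases on either strand, since no genome sequence was used here. Libraries were scaled with TMM factors from edgeR 4.0.16 (R 4.3.3) and compared with exact binomial tests (scipy 1.17.1). The tests were tried on simulated counts whose only spread was counting error, so that trial does not cover the spread between pools. DESeq2 1.42.0 size factors, other count minimums, strands and denominators served as alternatives. The text names the 6 members, a list of 7 seed relatives, other carriers of the seed and, per detected member, the next gene above and below in mean CPM. Members and lists were chosen with earlier results of these data known. The labels call the libraries biological replicates from separate pools.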

Additional observations from a re-analysis of the deposited data

How the results depend on the processing

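No member was called different between the libraries under DESeq2 size factors, a coefficient of 0.2 in edgeR's exact test, no filter on low counts or a minimum of 100 counts, and with no size limit 4 were. Genes called over the whole table numbered 16 in the reported test, 16 with DESeq2 size factors, 24 with no filter, 6 with a minimum of 100 counts, 2 with the fixed coefficient and 205 with no size limit. The genes tested numbered 277 with a minimum of 100 counts and 781 with no filter, against 395 in the reported test. What part this had in the numbers called was not tested. The 205 come from the same test with the size limit left out, and the fixed coefficient allows for more spread than counting error. The log2 ratio of Mir15a changed sign to 0.0026 when libraries were scaled by their sums with no TMM, and was 0.00 with DESeq2 size factors. The ratios of the other 4 detected members kept their direction under each scaling and strand tried.

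The family's share of 0.812% was 0.861% with both strands and 0.357% of all reads in the tables. With either replicate left out, the share is that of the other library, 0.775% or 0.849%, so this is no further check. The same holds for the opposite-strand share at Mir497b, at 99.94% and 99.98%. Without the genes that share a stretch of 20 bases with another, 306 genes were ranked, and Mir15a, Mir15b and Mir195a stood at ranks 50, 71 and 101. The Mir16 genes drop out there, so their rank is not known free of shared sequence. No paired analysis was possible because there was 1 group. Depth does not limit the detected members. For Mir497b's own strand and Mir195b, levels under the floor of 3 counts could not be told from 0.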

Other observations

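The ratio of neighbouring miRNA genes often differed between the libraries elsewhere too, in a look at the data chosen after the values of Mir15a and Mir16-1 were seen. There were 27 pairs of adjacent detected genes on 1 strand, at most 1000 bases apart and with at least 1000 counts for each gene in each library. The log2 ratios of replicate 2 over replicate 1 of the 2 genes in a pair lay 0.28 apart at the median, and from 0.02 to 0.95. Mir15a and Mir16-1 lay 0.30 apart, the 15th of the 27 pairs from the closest, and Mir15b and Mir16-2 lay 0.10 apart, the 8th. Mir322 and Mir503 lay 0.41 apart, the 20th. The differences cover pairs of all kinds, and their causes were not tested.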
